A study of Schizosaccharomyces pombe with 16 samples.

Results

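The comparison described here is that of wild type *Schizosaccharomyces pombe* (fission yeast) cells shifted to sucrose with wild type cells shifted to glucose. Its members are 4 of the 16 RNA-seq libraries of a study of carbon catabolite repression, namely every library labelled wild type and grown in medium with 3% sucrose or with 3% glucose, 2 replicate cultures in each. The cells, of the h- mating type by their labels, were grown in rich yeast extract medium with glucose at 32 °C, washed, split across the media and harvested 4 h later, so the glucose cultures went through the same wash and shift. Batch A (unstranded libraries) and batch B (stranded libraries) each held 1 library of wild type in sucrose and 1 of wild type in glucose, and the replicate number and the batch cannot be told apart. The study's strain table names a different wild type strain for batch B than the labels do, but the same strain for both media of a batch. The 8 libraries labelled as *scr1* mutants were 4 of *scr1*::*ura4*+ disruption cells and 4 of *scr1* deletion cells, 2 of each in each medium. They entered the fit of all libraries, where they help set the spread and the batch terms, and were set beside the wild type ones. That fit also held 4 wild type libraries in 3% glycerol, 2 with a little glucose (glucose-deficient) and 2 without glucose (glucose-starved). Batch C (stranded libraries) held the 4 deletion libraries, 1 glucose-deficient and 1 glucose-starved library, and none of the 4 compared here.

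In yeasts sucrose is mostly split outside the cell by invertase, in fission yeast Inv1, and the glucose and fructose enter through hexose transporters of the Ght family. When glucose is plentiful the zinc finger repressor Scr1, a relative of budding yeast Mig1, keeps genes for the use of other carbon sources and for high-affinity uptake low. Iron uptake has its own switch in this yeast: the GATA-type factor Fep1 represses uptake genes when iron is plentiful, and Php4 represses genes that use iron when it is scarce.

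Total counts were 17918030 in batch A and 14643221 in batch B in sucrose, against 17847610 in batch A and 14972385 in batch B in glucose, so depth hardly differed within a batch. Non-coding features took 9.97% of counts in sucrose and 9.99% in glucose in batch A, and 2.66% in sucrose and 2.88% in glucose in batch B. CPM are counts relative to the size of the library, scaled here by edgeR's TMM method. They are given for batch A and then batch B, and are not divided by gene length unless stated. The *scr1* gene had 35.7 and 32.6 CPM in wild type cells in sucrose, against 33.1 and 20.8 CPM in glucose. The 8 libraries labelled as mutants had more, 88.8 to 113 CPM in sucrose and 89.6 to 125 CPM in glucose. By the study's methods the deletion construct carried DNA that flanks the coding sequence, so transcribed parts outside it may remain. Counts per gene do not show which part of *scr1* was read, so they check neither the wild type nor the mutant labels. *inv1*, which the study names as repressed by Scr1, had 1976 to 2603 CPM in sucrose in the libraries labelled mutant. In glucose it had 1834 to 3024 CPM there. In the wild type libraries *inv1* had 23.8 and 10.7 CPM in sucrose, against 26.2 and 4.30 CPM in glucose. The p-values of the fit of all libraries rest on a spread pooled over all 16 libraries, most of them not part of this comparison. Those of a fit of fewer libraries rest on the spread left in that fit after its batch or pair terms, which is partly shared across genes.

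The log2 fold change, sucrose over glucose, comes from an edgeR quasi-likelihood fit with a term for the batch. A feature was called where its Benjamini-Hochberg adjusted p was under 0.05 and the fold change exceeded 1 on the log2 scale in either direction. The fit of all 16 libraries called 1 of 5134 protein-coding genes higher in sucrose, *ght3* (0.0195% of those tested), and 0 lower, while 37 were higher and 47 lower at an unadjusted p under 0.05. DESeq2 called 2 higher and 0 lower. Of 1557 non-coding features edgeR called 0 in either direction, with 34 higher and 10 lower at an unadjusted p under 0.05, and DESeq2 called 1 higher and 0 lower. Blocking on the replicate number (replicate block) rather than on the batch gave 2 calls among protein-coding genes, *ght3* and *ght5*. The fit of the 4 libraries alone, where the replicate block equals the batch, called 17 protein-coding genes higher (0.333%) and 14 lower (0.274%) of 5108. It has 1 residual degree of freedom, and its common dispersion was 0.0083, against 0.0337 in the fit of all libraries. What is left in it is how far the sucrose difference varied between batches A and B. Its median prior degrees of freedom were 14.9, so its p-values rest mostly on a spread shared across genes and little on each gene's own cultures. Every call below is named with its fit. The within-batch difference is the log2 CPM in sucrose minus that in glucose of the same batch, which has no test of its own.

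**Figure D1:**
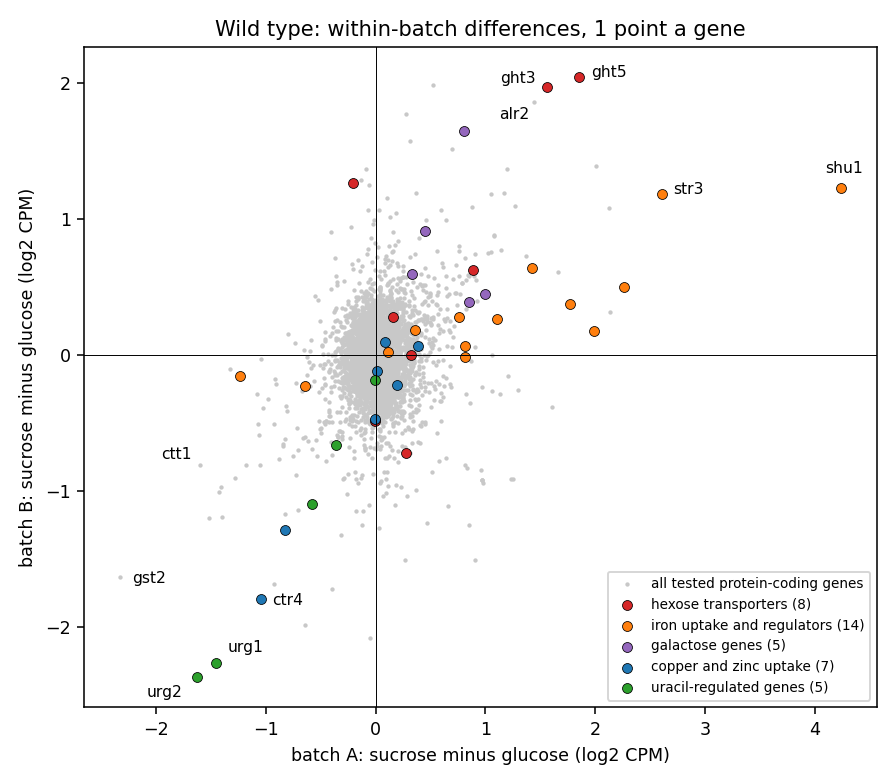
Within-batch differences of the 5134 tested protein-coding genes, sucrose minus glucose in log2 CPM, with batch A on the x axis and batch B on the y axis. Most genes lie in a round cloud about 0, while *ght3*, *ght5*, *str3* and *shu1* lie far to the upper right and *gst2*, *urg1*, *urg2* and *ctr4* far to the lower left.

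Most genes did not shift together. Of 5134 protein-coding genes, 1283 were higher in sucrose in both batches (25.0%) and 1269 lower in both (24.7%), so 49.7% had the same sign. Past 0.2 in size, 213 were higher in both (4.15%) and 140 lower in both (2.73%). Scaled by library totals instead of TMM, 718 were higher in both and 2026 lower in both. The batch A and batch B differences had a Pearson r of 0.26 and a Spearman rho of 0.05 across genes, which share their libraries and are not independent replicates. The agreement lay in the genes with the largest differences. The 50 protein-coding genes highest in batch A, of 4911 with a mean of at least 5 CPM, had a median difference of 0.85 there and of 0.55 in batch B, and 44 were higher in sucrose in batch B. The 50 lowest in batch A had a median of -0.83 there and of -0.61 in batch B, with 46 lower. Ranked in batch B, 40 of the 50 highest were higher in batch A, with a median of 0.24 there, and 34 of the 50 lowest were lower, with a median of -0.27. Over all 4911 genes the medians were -0.00024 in batch B and -0.00055 in batch A, and 49.9% were higher and 50.1% lower in sucrose in either batch. The 50 highest shared 19 genes between batches and the 50 lowest 20. CPM of the sucrose libraries lay above both glucose libraries for 384 genes (7.48%) and below both for 353 (6.88%).

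*ght3*, annotated as a gluconate:proton symporter of the Ght family (SPAC1F8.01, chromosome I, 82746 to 84786, coordinates of the ASM294v2 annotation used for the counts), rose in sucrose. It had 322 and 288 counts in sucrose, against 111 and 77 counts in glucose, or 16.03 and 17.7 CPM in sucrose, against 5.36 and 4.42 CPM in glucose, and the libraries did not overlap. The log2 fold change was 1.77 (SE 0.18, edgeR adjusted p = 0.00274, n = 2 each). The call was lost without either sucrose library (adjusted p = 0.0569 without that of batch A and 0.0653 without that of batch B) or without the batch B glucose library (0.143). *ght5*, a high-affinity glucose and fructose transporter (SPCC1235.14, chromosome III, 212160 to 214376), had 1093.5 and 800.1 CPM in sucrose, against 302 and 194 CPM in glucose, again without overlap. Its log2 fold change of 1.94 (SE 0.32) had an adjusted p of 0.167 in the fit of all libraries, of 0.0374 with the replicate block and of 1.33e-06 in the fit of the 4 libraries. Both levels lay far under those of wild type cells in the glucose-deficient medium, where *ght3* had 507 and 677 CPM and *ght5* 5228 and 4836 CPM.

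The 6 other Ght genes were measured as well. *ght1*, a high-affinity glucose transporter, had 82.7 and 59.2 CPM in sucrose, against 44.6 and 38.3 CPM in glucose, which did not overlap. Its log2 fold change was 0.76 in the fit of all libraries (adjusted p = 1) and 0.75 in the fit of the 4 libraries (adjusted p = 0.00328), under the minimum of 1. *ght4* had 31.7 and 32.1 CPM in sucrose, against 28.4 and 26.5 CPM in glucose. *ght8* was the most abundant of the family, with 1301 and 960 CPM in sucrose, against 1045 and 961 CPM in glucose. Divided by gene length, *ght8* had 269 CPM per kb in sucrose and 238 in glucose, while *ght5* had 427 in sucrose and 112 in glucose, so the order of these genes differed between the media. *ght2* had 156 and 187 CPM in sucrose, against 156 and 262 CPM in glucose. *ght7* had under 2 CPM in all 4 libraries. *ght6* had 23.6 CPM in sucrose and 19.4 CPM in glucose in batch A but 0.369 CPM in sucrose and 0.688 CPM in glucose in batch B, a gap between batches and not between media. Of the 8 genes 4 were higher and 1 lower in both batches, and the list's median difference was 0.30 in batch A and 0.45 in batch B, beside 0.00085 in batch A and -5.6e-05 in batch B over all tested protein-coding genes.

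Genes for the use of sucrose and alpha-glucosides were called neither in the fit of all libraries nor in that of the 4. Of 6 tested, 2 were higher in both batches and 2 lower. *inv1*, the invertase gene (SPCC191.11), had 23.8 CPM in sucrose and 26.2 CPM in glucose in batch A, but 10.7 CPM in sucrose and 4.30 CPM in glucose in batch B. Its difference was thus -0.14 in batch A and 1.29 in batch B, and the log2 fold change was 0.20 (SE 0.80, adjusted p = 1). *sut1*, a sucrose and maltose transporter, was lower in both batches, by -0.19 in A and -0.27 in B. *mal1* and *agl1*, which encode alpha-glucosidases, had differences of 0.09 and 0.19 in batch A and of 0.19 and 0.52 in batch B. *rst2*, the zinc finger activator that opposes Scr1, had 97.3 and 83.0 CPM in sucrose, against 82.7 and 93.9 CPM in glucose, and these overlapped.

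All 5 galactose genes, which encode the enzymes that turn galactose into glucose phosphate and an alpha-galactosidase, were higher in sucrose in both batches. Their median difference was 0.80 in batch A and 0.59 in batch B. *gal10* (SPBPB2B2.12c), the epimerase, had 10.10 and 11.2 CPM in sucrose, against 5.75 and 3.50 CPM in glucose, and was called in the fit of the 4 libraries (log2 fold change 1.20, SE 0.22, adjusted p = 0.00806) but not in that of all libraries (1.21, SE 0.75, adjusted p = 1). *gal1*, the galactokinase, had 24.2 and 26.4 CPM in sucrose, against 17.7 and 13.9 CPM in glucose. The 103 protein-coding genes that the study's chromatin immunoprecipitation found bound by Scr1 contain several of these. Of the 102 tested, 46 were higher in both batches (45.1%, beside 25.0% of all protein-coding genes) and 22 lower (21.6%, beside 24.7%), with medians of 0.11 in batch A and 0.08 in batch B. The fit of the 4 libraries called 8 of them higher (beside 0.333% of all genes) and 0 lower (beside 0.274%), and that of all libraries called 1 higher, *ght3*.

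The sequences upstream of *ght3* and *ght5* are shown for their Scr1-type sites, which resemble the GC-rich sites bound by Mig1-like repressors. Such sites were read as GGAG or GGGG directly after CC, CT, GC or GT and searched on both strands. The study reports this motif as enriched in Scr1-bound regions upstream of genes both bound by Scr1 and changed in its mutants. The 1000 bases before the start codon in the RefSeq annotation of ASM294v3 held 4 matches for *ght3* and 2 for *ght5*. At least 1 match was found for 48.7% of the 5103 genes with such a window, at least 2 for 16.7% and at least 4 for 1.16%. Each line gives 30 bases, 5′ to 3′ on the strand of the gene, with its place in ASM294v3 and the match in capitals.
ght3, 820 bases upstream, chrI:82104-82133, plus strand: tttgaaagaagtGCGGAGaaactctttgag
ght3, 632 bases upstream, chrI:82292-82321, plus strand: agctgatactggGTGGGGcaaagtttataa
ght3, 602 bases upstream, chrI:82322-82351, plus strand: gttgaatgaaatGTGGAGaagtaaataatt
ght3, 138 bases upstream, chrI:82786-82815, plus strand: tttaaaaaatccGTGGAGttttttctttct
ght5, 910 bases upstream, chrIII:211391-211420, plus strand: caaggcaattttGTGGAGtataacaaaaga
ght5, 753 bases upstream, chrIII:211548-211577, plus strand: tcatacacttaaCCCCGCatccaaggtatg
A match is only a run of letters. All 8 Ght genes and all 5 galactose genes held at least 1, whether or not they differed between the media, and so did 70.3% of the 101 Scr1-bound genes with a window.

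Most genes of iron uptake were higher in sucrose, by more in batch A than in batch B. Of 14 genes for iron uptake and its regulation, 11 were higher in both batches (78.6%, beside 25.0% of all genes) and 2 were lower in both. The fit of the 4 libraries called 6 of them higher, beside 17 of all 5108 genes (0.333%). The edgeR fit of all libraries called 0, with 4 at an unadjusted p under 0.05. The list's median difference was 0.96 in batch A and 0.22 in batch B. *str3*, a transporter of iron bound to siderophores (SPAC1F8.03c, chromosome I, 88201 to 90300), had 398 and 83.0 CPM in sucrose, against 65.2 and 36.4 CPM in glucose. Its log2 fold change in the 4 libraries was 1.91 (SE 0.23, adjusted p = 0.000145). *fio1* and *fip1*, the multicopper oxidase and permease of the reductive uptake pathway, form a divergent pair of genes. *fio1* had 170 and 146 CPM in sucrose, against 63.4 and 93.7 CPM in glucose, with no overlap. *fip1* had 611 and 279 CPM in sucrose, against 179 and 215 CPM in glucose, also with no overlap. *frp1*, the ferric reductase that feeds them, had 282 and 63.9 CPM in sucrose, against 58.7 and 45.1 CPM in glucose. *frp2*, another ferric reductase, had 25.9 and 6.94 CPM in sucrose, against 6.42 and 6.14 CPM in glucose. The difference in batch B was small for *frp2*, 0.17, and larger in batch A, 1.99. *shu1*, the cell surface protein of heme uptake (SPAC1F8.02c, chromosome I, 85566 to 86324), had 650 counts in sucrose and 33 in glucose in batch A, but 18 in sucrose and 7 in glucose in batch B. Its value therefore rests on batch A.

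The 2 genes of the list that were lower in both batches were *fep1*, the repressor of uptake, with differences of -0.65 in batch A and -0.23 in batch B, and *pcl1*, which moves iron into the vacuole, with -1.23 in batch A and -0.15 in batch B. *php4*, which encodes the repressor of iron-using genes, had differences of 0.81 in batch A and 0.07 in batch B. Of the 16 genes of the TCA cycle, 4 were higher in both batches and 7 lower, with medians of -0.13 in batch A and -0.04 in batch B. The 4 that were lower by more than 0.2 in both were those of succinate dehydrogenase, an iron-sulfur enzyme, and were singled out after their values were seen. *sdh2*, its iron-sulfur subunit, had 69.6 and 145 CPM in sucrose, against 142 and 190 CPM in glucose. *sdh1* had differences of -0.73 in batch A and -0.20 in batch B, *sdh3* of -0.90 in A and -0.21 in B, and *tim18* of -0.98 in A and -0.33 in B. None of these 7 genes was called in wild type cells. In the fit of the 4 libraries *sdh2* and *tim18* had log2 fold changes of -0.72 (adjusted p = 0.023) and -0.67 (adjusted p = 0.0314), under the minimum size.

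*ght3*, *shu1* and *str3* are consecutive by systematic name on the left arm of chromosome I, within 100 kb of its end. The 124 tested protein-coding genes in such end regions had 44 members higher in both batches and 39 lower, and medians of 0.08 in batch A and -0.13 in batch B. The fit of the 4 libraries called 8 of the 124 higher and 3 lower, beside 0.333% and 0.274% of all protein-coding genes.

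Iron uptake genes were also searched for the letters ATCAGATAA and ATCTGATAA on either strand, which contain the GATA core that Fep1 binds. At least 1 match was found in the 1000 bases before the start codon for 11 of the 14 genes (78.6%), and for 3.86% of all 5103 windows. None of the 8 hexose transporter, 5 galactose, 7 copper and zinc or 5 uracil-regulated genes had one. A match is again only a run of letters. These shares were read from sequence and list membership without the counts, and whether Fep1 took part in the sucrose difference was not tested. The matches of the iron genes called in the fit of the 4 libraries are printed as above.
str3, 651 bases upstream, chrI:90891-90920, minus strand: gacgttggcaATCTGATAAtttaagacaaa
shu1, 635 bases upstream, chrI:86894-86923, minus strand: cacaatatccATCTGATAAgtaaaatcgta
shu1, 130 bases upstream, chrI:86389-86418, minus strand: tatcaagataATCAGATAAtttagcttaat
fio1, 803 bases upstream, chrI:4234826-4234855, plus strand: tctggattacATCTGATAActtttgtccag
frp1, 625 bases upstream, chrII:162761-162790, minus strand: actttagctcATCAGATAAaaaatagactg
frp1, 333 bases upstream, chrII:162469-162498, minus strand: aatttggttgATCTGATAAcgcatcaagat
frp2, 473 bases upstream, chrII:666642-666671, plus strand: ttgctatctgATCAGATAAaattttcttgt
frp2, 410 bases upstream, chrII:666705-666734, plus strand: acagagggagATCTGATAAgttactttact
The *fio1* match is also the match of *fip1* read from the other strand, since these genes diverge from the stretch between them.

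**Figure D2:**
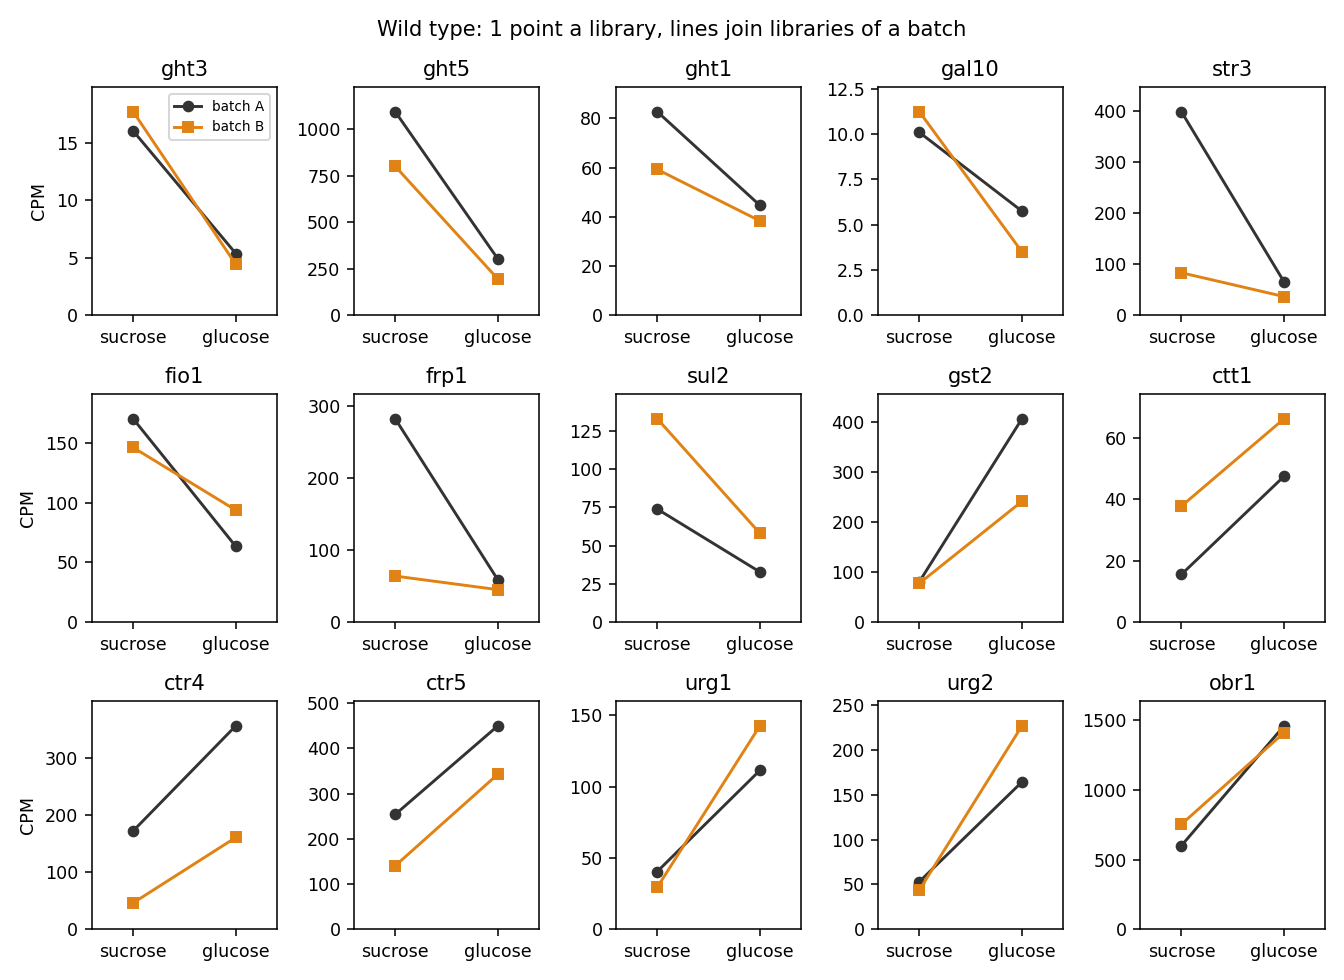
CPM (TMM-scaled) of 15 genes in the 4 wild type libraries, sucrose at the left and glucose at the right of each panel, with 1 point a library and a line joining the libraries of a batch. All lines of *ght3*, *ght5*, *str3*, *fio1* and *frp1* run down toward glucose, while those of *gst2*, *ctt1*, *ctr4*, *urg1* and *obr1* run up, and *str3* and *frp1* are high in sucrose in batch A.

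Of 7 genes for copper and zinc uptake, 2 were higher in both batches, 3 lower and 2 of opposite sign, with medians of 0.01 in batch A and -0.22 in batch B. The 2 called, beside 0.274% of all protein-coding genes called lower in the 4 libraries, were *ctr4* and *ctr5*. They encode the subunits of the high-affinity copper transporter of the plasma membrane. *ctr4* had 172 and 46.1 CPM in sucrose, against 356 and 161 CPM in glucose, and the batch A sucrose value lay above the batch B glucose value. *ctr5* had 254 and 140 CPM in sucrose, against 450 and 343 CPM in glucose, with no overlap. Both were called lower in the fit of the 4 libraries, with log2 fold changes of -1.43 (SE 0.16, adjusted p = 0.000105) and -1.07 (SE 0.14, adjusted p = 0.000456), and not in that of all libraries (adjusted p = 1 each). The other 5 genes of the list were not called, among them *cuf1*, the copper-sensing activator of these genes, with differences of 0.08 in batch A and 0.09 in batch B. *fet4*, annotated as an iron and zinc transporter and on none of the lists, had 10.7 and 5.04 CPM in sucrose, against 19.0 and 11.5 CPM in glucose (log2 fold change -1.001 in the 4 libraries, SE 0.17, adjusted p = 0.00458).

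Several oxidoreductase and detoxification genes were lower in sucrose. *gst2*, a glutathione S-transferase (SPCC965.07c, chromosome III, 2294617 to 2296383), had 80.7 and 77.4 CPM in sucrose, against 405 and 241 CPM in glucose, with a log2 fold change of -2.00 in the 4 libraries (SE 0.17, adjusted p = 5.05e-06) and of -2.05 in all libraries (SE 0.66, adjusted p = 1). *ctt1*, the catalase, had 15.5 and 37.7 CPM in sucrose, against 47.4 and 66.1 CPM in glucose. *obr1*, annotated as a quinone-reducing NAD(P)H dehydrogenase, had 600.0 and 753 CPM in sucrose, against 1459.9 and 1410.5 CPM in glucose. *plr1*, the pyridoxal reductase, had 139 and 237 CPM in sucrose, against 314 and 414 CPM in glucose. The sucrose libraries of all 4 genes lay under both glucose libraries, beside 6.88% of all tested protein-coding genes. These 4 were taken from the 14 genes called lower in the fit of the same libraries, of which 13 did not overlap. The aldo-keto reductase genes *SPAC977.14c* and *SPAC750.01* were likewise called lower in the 4 libraries, at -1.21 and -1.24, but lie near chromosome ends and may share reads with each other. The wider list of 19 genes for defence against oxidants held 6 members higher in both batches and 6 lower, with medians of -0.05 in batch A and 0.04 in batch B. Of these 19 genes, 2 were called lower in the 4 libraries, *ctt1* and *gst2*, beside 0.274% of all protein-coding genes. Superoxide dismutase gene *sod1* had differences of 0.15 in batch A and 0.36 in batch B.

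The 5 uracil-regulated genes were all lower in both batches, with medians of -0.58 in batch A and -1.10 in batch B. *urg2*, annotated as a putative uracil phosphoribosyltransferase (SPAC1002.17c, chromosome I, 1830609 to 1831951), had 53.1 and 43.8 CPM in sucrose, against 164 and 227 CPM in glucose. *urg1*, its neighbour annotated as a GTP cyclohydrolase II, had 40.5 and 29.5 CPM in sucrose, against 111 and 143 CPM in glucose. Both were called in the 4 libraries, *urg2* at -2.01 (SE 0.16, adjusted p = 4.62e-06) and *urg1* at -1.87 (SE 0.16, adjusted p = 6.6e-06). Over all protein-coding genes 0.274% were called lower there. *urg3* had differences of -0.58 in batch A and -1.10 in batch B. *fur4*, the uracil permease, differed little, by -0.18 in batch B and less in batch A.

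Genes outside these groups were among the 15 with the largest difference shared by both batches in either direction. *alr2*, the alanine racemase, had 31.5 and 20.2 CPM in sucrose, against 11.5 and 5.45 CPM in glucose. *cmt2*, a catechol O-methyltransferase gene, had 35.1 and 22.9 CPM in sucrose, against 7.97 and 10.8 CPM in glucose. Both were called in the fit of the 4 libraries, with adjusted p = 3.78e-05 for *alr2* and 0.000153 for *cmt2*, and neither in that of all libraries. The fit of the 4 libraries also called *mug114*, *nep2*, *SPBPB21E7.11*, *SPBPB2B2.08* and *SPCC4F11.05* higher and *nrg1* lower, which the fit of all libraries did not. *sul2*, a sulfate transporter, had 73.95 and 133 CPM in sucrose, against 32.8 and 58.1 CPM in glucose, and its difference was 1.17 in batch A and 1.19 in batch B. *met17*, the homocysteine synthase that uses the sulfide made from sulfate, had 194 and 130 CPM in sucrose, against 93.98 and 77.03 CPM in glucose. *hri1*, a kinase of the initiation factor eIF2 alpha that is linked to heme, had 50.2 and 42.6 CPM in sucrose, against 23.8 and 23.1 CPM in glucose. *ste11*, the transcription factor that starts sexual differentiation, had 52.4 and 49.5 CPM in sucrose, against 30.96 and 29.1 CPM in glucose, with a difference of 0.76 in each batch. *mei2*, a meiotic regulator downstream of Ste11, had differences of 0.78 in batch A and 0.53 in batch B, while of the 15 genes on the list of sexual differentiation 6 were higher in both and 3 lower. *SPAC806.11*, among the falls, lies on the same stretch as the non-coding *prl3*, and their counts were nearly the same (84.2 and 84.0 CPM in sucrose in batch A), so the reads cannot be told apart.

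Genes of central metabolism gave small differences, none of them called. Of 13 genes of glycolysis, 10 were higher in both batches (76.9%) and 0 lower in both, with medians of 0.21 in batch A and 0.34 in batch B. *hxk2*, a hexokinase, had 1204 and 1063 CPM in sucrose, against 878 and 773 CPM in glucose, a difference of 0.46 in each batch. *eno101*, an enolase, had 3940 and 3548 CPM in sucrose, against 3414 and 1989 CPM in glucose. Of 38 nuclear genes of the respiratory chain and ATP synthase, 27 were higher in both and 2 lower, with medians of 0.14 in batch A and 0.11 in batch B. The medians of the 6 genes encoded in the mitochondrion had opposite signs, 0.82 in batch A and -0.31 in batch B. Of 9 core histone genes 8 were higher in both, with medians of 0.35 in batch A and 0.12 in batch B, though the near-identical copies share reads.

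Cytoplasmic ribosomal protein genes had a median of 0.00 in batch A and 0.16 in batch B, and 73 of 146 were higher in both and 0 lower in both. Genes of ribosome biogenesis had the other sign in batch A, with 36 of 91 lower in both and 4 higher, and medians of -0.13 in batch A and 0.02 in batch B. Splicing factors had medians of -0.07 in batch A and -0.02 in batch B, with 17 of 43 lower in both. Scaling by library totals moved the median of all protein-coding genes to -0.05 in batch A and -0.07 in batch B. The medians of 0.16 and -0.13 above exceeded that shift in size, and the others were near it or under it. Trehalose and stress kinase genes had medians of 0.02 and -0.04 in batch A and of -0.30 and -0.20 in batch B.

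**Figure D3:**
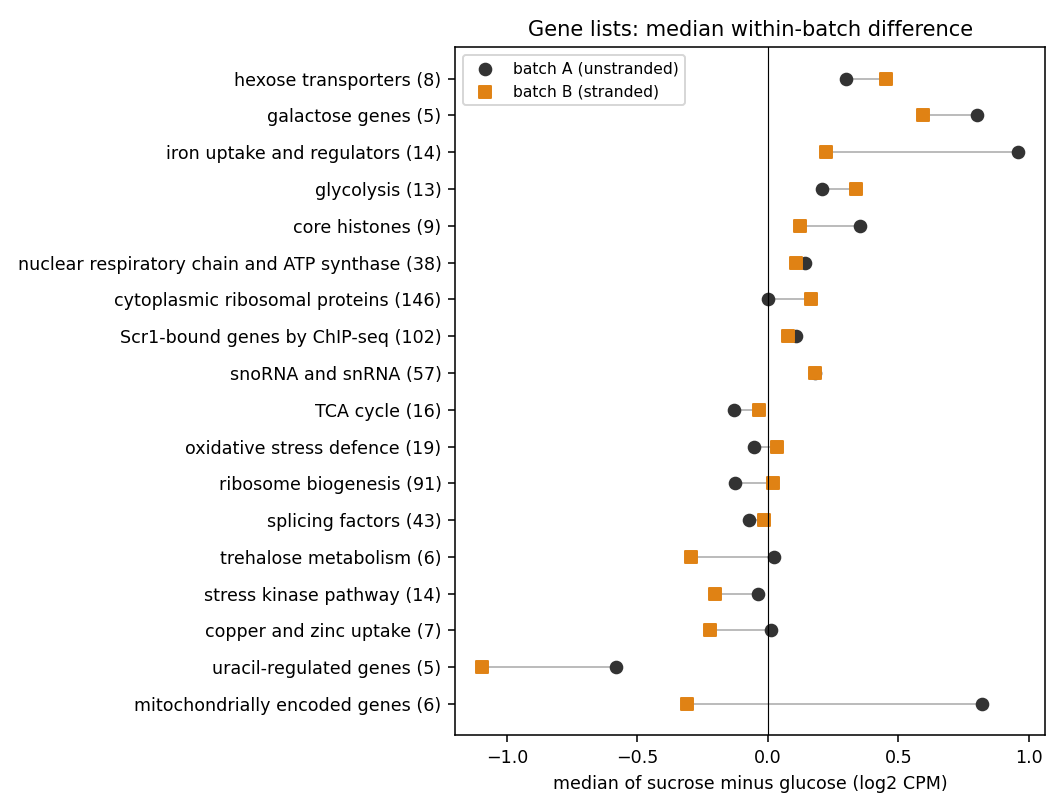
Median within-batch difference of each gene list, sucrose minus glucose in log2 CPM, with a point for batch A and 1 for batch B and the number of tested genes in brackets. Galactose, iron uptake and glycolysis genes have both points above 0 and uracil-regulated genes both below 0, and the mitochondrially encoded genes have points on either side.

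Of 1557 non-coding features tested, 557 were higher in both batches (35.8%) and 336 lower in both (21.6%), and the fit of the 4 libraries called 13 of 1516 higher (0.858%) and 4 lower (0.264%). The median difference over all non-coding features was 0.04 in batch A and 0.05 in batch B, no larger than the shift between scalings, and over the 959 antisense RNAs 0.03 in each batch. Past 0.2 in size, 217 were higher in both (13.9%) and 98 lower in both (6.29%). The sucrose libraries lay above both glucose libraries for 124 (7.96%) and below both for 47 (3.02%). Small nucleolar and nuclear RNAs had 32 of 57 higher in both and 1 lower, with medians of 0.18 in batch A and 0.18 in batch B. Among the named features, the *meu3* and *meu19* RNAs had nearly the same pattern. Whether they share reads was not checked, so they may not be separate results. *meu19* had 9.70 and 25.0 CPM in sucrose, against 5.602 and 9.64 CPM in glucose, and *meu3* had 7.02 and 17.6 CPM in sucrose, against 3.91 and 6.77 CPM in glucose. *SPNCRNA.1300* had 17.9 and 9.28 CPM in sucrose, against 43.1 and 21.8 CPM in glucose. Of the 4 called lower, *SPNCRNA.136* and *SPNCRNA.287* had opposite signs in batches A and B and almost no counts in batch B. *SPNCRNA.603*, which lies beside *ght3* on the other strand (chromosome I, 81468 to 82345), had 26 and 23 counts in sucrose, against 6 and 4 counts in glucose, and was the feature that DESeq2 called.

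The 8 libraries labelled as *scr1* mutants share no library with the wild type ones. They give the same measure in cells whose label says that Scr1 is lost, which the *scr1* counts do not check. Fitted as 4 same-batch pairs, with 3 residual degrees of freedom, they had 21 of 5029 protein-coding genes higher in sucrose (0.418%) and 29 lower (0.577%) at an adjusted p under 0.05. Of 1260 non-coding features, 17 were higher (1.35%) and 4 lower (0.317%). This fit was chosen after the wild type values were seen. Of the 17 genes called higher in the 4 wild type libraries, 16 were tested in the libraries labelled mutant, and 15 were higher there. Those that passed were 7 (43.8%, beside 0.418% of all genes): *alr2*, *cmt2*, *fio1*, *fip1*, *frp1*, *frp2* and *shu1*. Of the 14 called lower, 13 were lower there and 7 passed: *ctr4*, *ctt1*, *fet4*, *gst2*, *obr1*, *SPCC18B5.02c* and *SPCC663.08c*. Read the other way, 16 of the 21 genes higher in the libraries labelled mutant were higher in both wild type batches (76.2%), and 26 of the 29 lower ones were lower in both (89.7%), against 25.0% and 24.7% of all genes. Non-coding features gave less, with 8 of the 17 higher ones higher in both wild type batches (47.1%, beside 35.8%) and 1 of the 4 lower ones lower in both, and the medians of their mean within-batch differences in wild type cells were -0.11 for the higher and 0.47 for the lower ones.

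Iron uptake genes were also higher in the libraries labelled mutant. In these *fip1* rose by a log2 fold change of 1.09 (SE 0.05, adjusted p = 1.55e-05), with differences between 1.004 and 1.17 in the 4 pairs. *fio1* rose by 1.09 (SE 0.06, adjusted p = 6.13e-05), *frp1* by 1.01 (SE 0.08, adjusted p = 0.000869) and *frp2* by 1.25 (SE 0.08, adjusted p = 0.000131). *php4* rose by 0.36 (adjusted p = 0.0186) and *pcl1* fell, with a log2 fold change of -0.85 (adjusted p = 0.0056). *sdh2*, at -0.73, *sdh1*, at -0.47, and *aco1*, the iron-sulfur enzyme aconitase, at -0.44, also fell (adjusted p = 0.0186, 0.0427 and 0.0186). The median of the iron list was between 0.31 and 0.82 in the 4 mutant pairs. *ctt1* fell, at -1.21 (adjusted p = 0.0051), as did *gst2*, at -1.33 (adjusted p = 0.0367), and *ctr4*, at -1.14 (adjusted p = 0.0384).

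*ght3* and *ght5* did not pass in the libraries labelled mutant, where both were far above their wild type levels in either medium. *ght3* had 97.6 to 118 CPM in sucrose and 91.1 to 111 CPM in glucose there, and *ght5* had 5995 to 7760.1 CPM in sucrose and 6265 to 6841 CPM in glucose. In the mutant pairs the log2 fold change was 0.07 (SE 0.05, adjusted p = 0.698) for *ght3* and 0.04 (SE 0.06, adjusted p = 0.861) for *ght5*. The wild type minus mutant difference of the sucrose effect was 1.70 for *ght3* in the fit of all libraries (SE 0.21, adjusted p = 0.0232). It was lost in 11 of 16 fits that left out 1 library, with adjusted p between 0.0527 and 0.537, among them each fit without a wild type sucrose or glucose library. In a fit of the 12 glucose and sucrose libraries as 6 pairs, also chosen after values were seen, the difference was 1.70 for *ght3* (SE 0.14, adjusted p = 0.000647), 1.91 for *ght5* (SE 0.11), -1.83 for *urg1* (SE 0.19), -1.84 for *urg2* (SE 0.21), 1.77 for *meu3* (SE 0.19) and 1.76 for *meu19* (SE 0.19), with an adjusted p under 0.05 for each. In the libraries labelled mutant *meu3* and *meu19* fell in sucrose, at -0.61 and -0.63 (adjusted p = 0.00968 each). *gal10* had a wild type minus mutant difference with an adjusted p of 0.0877 in the 6 pairs, and those of *gst2* and *str3* an adjusted p of 0.984 each.

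**Figure D4:**
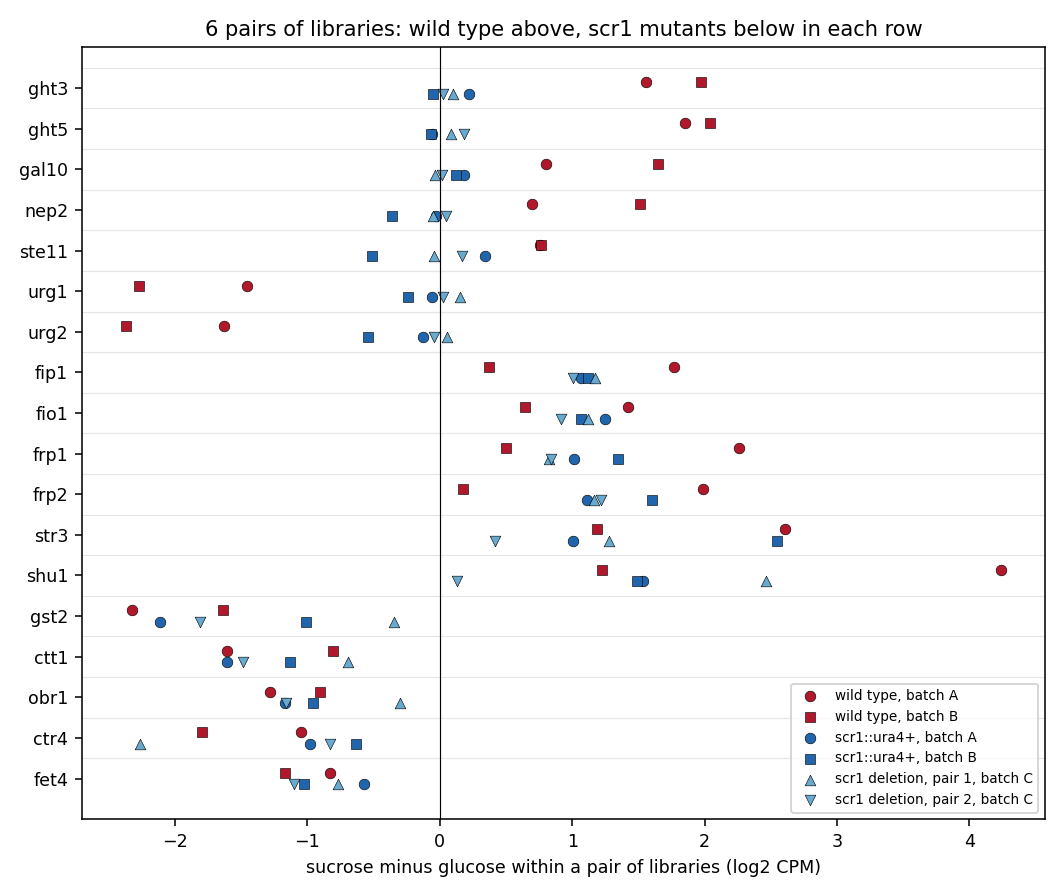
Sucrose minus glucose in log2 CPM within each of 6 pairs of libraries, for 18 genes, with wild type pairs in red above and pairs labelled *scr1* mutant in blue below in each row. *ght3*, *ght5*, *urg1* and *urg2* have wild type pairs away from 0 and mutant pairs near 0, while the iron uptake genes and *gst2*, *ctt1*, *obr1*, *ctr4* and *fet4* lie on one side in all pairs.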

How the data were processed

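RNA was sequenced from 16 cultures in 3 batches. The authors deposited counts per feature, made by trimming with Cutadapt 1.9.1, aligning with TopHat2 2.1.1 to ASM294v2 and counting with featureCounts 1.5.2, where a read that mapped to several places, or to overlapping features, was counted at each, and with no normalization. Of 7019 features, 5172 were protein-coding by identifier. Counts were fitted with edgeR 4.0.16 (TMM, filterByExpr with a minimum count of 10, quasi-likelihood test, 6 groups with the *scr1* mutants pooled, batch term, 8 residual degrees of freedom, Benjamini-Hochberg over 6691 features). Standard errors were derived from the fold change and its F statistic. Alternatives used DESeq2 1.42.0, other scalings, filters and subsets of libraries. Of these, the fits of 12 libraries, of 6 pairs and of 4 mutant pairs, and DESeq2 on 4 libraries, were chosen after seeing the data. Within-batch differences are log2 CPM with a prior count of 2. A floor of 3 counts was 0.167 CPM in the batch A sucrose library by its total. Scripts were tested on simulated data, with the fit of all libraries, a single dispersion of 0.0337 and no batch differences. At an adjusted p under 0.05 the fit recovered 2 of 68 features changed by 0.5 on the log2 scale. It recovered 37 of 66 changed by 1 and 66 of 66 changed by 2, and 8 unchanged features passed. Shifts of 0.5 thus mostly went uncalled there.

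Each replicate's pre-culture was split across the media, and the deviations of same-numbered sucrose and glucose libraries from their group means correlated at 0.97 over 6691 features. Replicate numbers equal batches in these 4 libraries, and the pairing rests on the study's methods.

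Members and lists were chosen with earlier results of these data known. Text names all genes of the hexose transporter and sucrose lists, *scr1*, *rst2* and the protein-coding genes called in sucrose against glucose. It also names genes from the 15 largest rises and falls shared by both batches (at least 5 CPM) and list members by the same measure. Only some of the called non-coding features, and of the 5 with the largest shared difference each way, are named. Genes of the mutant fit, *sdh* genes, *fep1*, *php4*, *pcl1*, *cuf1*, *fur4*, *mei2* and *sod1* were added after their values were seen. The list of Scr1-bound genes is the study's, from its chromatin immunoprecipitation. Batch A reads carry no strand, so antisense and overlapping features cannot be told apart there.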

Additional observations from a re-analysis of the deposited data

Results flagged for a closer look

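The sucrose effect of *ght3* differed between wild type cells and those labelled as *scr1* mutants, by 1.70 on the log2 scale in the fit of all libraries and by 1.70 in the 6 pairs, and was higher in sucrose in 2 of 2 wild type pairs. In the 6 pairs the difference was also past the threshold for *ght5* (1.91), *urg2* (-1.84), *urg1* (-1.83), *meu3* (1.77) and *meu19* (1.76). None of these 5 had an adjusted p under 0.05 for the difference in the fit of all libraries. In the fit of all libraries *meu3* and *meu19* had differences of 1.74 and 1.72 with an adjusted p of 1.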

How the results depend on the processing

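Calls among protein-coding genes depended on which libraries set the spread. Against 1 higher and 0 lower in the fit of all libraries, edgeR called 0 higher in the 8 wild type libraries, 0 in the stranded libraries, 2 in the 12 glucose and sucrose libraries and 2 with a replicate block instead of the batch term. DESeq2 called 2 higher. The 4 libraries alone, whose replicate block is the batch, gave 17 higher and 14 lower, DESeq2 on them 7 and 13, and the 6 pairs as a paired replicate block 11 and 9. Leaving out 1 library gave 0 to 2 higher. Non-coding calls were 13 higher and 4 lower in the 4 libraries, 2 and 2 with DESeq2 there, 9 and 3 in the 6 pairs, and 1 higher with DESeq2 on all libraries. For the wild type minus mutant difference, 0 protein-coding genes were called higher in the stranded libraries, 2 with DESeq2, 2 in the 12 libraries, 2 higher and 2 lower in the 6 pairs, and 0 to 2 higher when 1 library was left out. Non-coding features gave 1 higher and 1 lower with DESeq2 and 2 higher in the 6 pairs. The cause was not tested.

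*ght3* had a log2 fold change of 1.78 in the 8 wild type libraries and 2.003 in the stranded ones, with the call lost, and of 1.52 to 2.02 with 1 library left out. *ght5* passed with the replicate block (1.94), in the 4 libraries (1.93), with DESeq2 on all (1.94) or 4 (1.94) libraries, in the 12 libraries (1.94) and in the 6 pairs (1.95), and had 1.63 to 2.251 with 1 library left out. It also passed without either starved wild type library (adjusted p = 0.000575 and 0.000599, against 0.167). Library totals gave 718 protein-coding genes higher and 2026 lower in both batches. No test could be had on the 4 libraries with 1 left out, since no residual degree of freedom remains.

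The sign turned for *ght6* (-0.88 in the stranded libraries, -0.020 with DESeq2 on 4), *gto2* (-0.25 in the stranded libraries), *rst2* (-0.18 in the stranded libraries, -0.039 by library totals) and *SPNCRNA.136* (0.70 with DESeq2, 0.96 with DESeq2 on 4). With 1 library left out it also turned, over the ranges given, for *ght2* (-0.61 to 0.083), *ght6* (-3.60 to 2.87), *ght7* (-0.0034 to 1.16), *ght8* (-0.039 to 0.35), *inv1* (-0.76 to 2.30), *mal1* (-0.31 to 0.51), *agl1* (-0.13 to 0.87), *gto2* (-0.17 to 0.29), *gto1* (-0.17 to 0.050), *scr1* (-0.037 to 0.76), *rst2* (-0.18 to 0.19), *SPNCRNA.136* (-1.10 to 3.80), *SPNCRNA.287* (-1.26 to 2.64) and *SPNCRNA.1309* (-0.35 to 2.29).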

Other observations

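Of 19 genes of the G1/S wave, which the factor MBF drives at the start of DNA replication, 11 were higher in sucrose in both batches and 1 lower, with medians of 0.10 in batch A and 0.12 in batch B. Of 61 genes of amino acid synthesis, 9 were higher in both batches and 20 lower, with medians of -0.03 in batch A and -0.07 in batch B. Of 76 mitochondrial ribosomal protein genes, 27 were higher in both and 9 lower, with medians of -0.0040 in batch A and 0.12 in batch B. None of these genes was called in the fit of all libraries or of the 4, where edgeR had 1, 1 and 0 of the lists' genes at an unadjusted p under 0.05 in the fit of all libraries. *SPNCRNA.1120*, which lies between *ght8* and *ght1* (chromosome III, 230600 to 231934), had 21 and 25 counts in sucrose, against 4 and 5 counts in glucose.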
